A study of Mus musculus with 14 samples.

Results

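The 150 probes described here were higher in embryonic stem (ES) cell colonies picked on day 4 of retinoic acid (RA) culture than in standard day 3 and control day 3 cultures, and were held to at most a small rise after 48 h of RA and in colonies picked on day 7. They were chosen from 42006 probes on their measured values. For the choice, log ratios of the extraction software were turned to log2 of sample over reference, centred on each array's median and averaged per group of 2 arrays. Of all probes, 23882 were well above background on both day 4 arrays. Of these, 17426 had RA 48 h minus control day 3 and day 7 minus standard day 3 both under 0.5 (log2). The 150 members are those with the highest score, where the score is the smaller of day 4 minus standard day 3 and day 4 minus control day 3. The limits act upwards only, so a member may lie below its baseline after 48 h of RA or on day 7.

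Mouse ES cells are kept undifferentiated in culture by leukaemia inhibitory factor (LIF), which signals through STAT3. RA, a derivative of vitamin A, enters the nucleus and binds RA receptors that sit on DNA, and it is widely used to drive ES cells out of the pluripotent state. LY294002 inhibits phosphoinositide 3-kinase (PI3K), a lipid kinase upstream of AKT that also helps to maintain mouse ES cells.

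Each of the 7 groups held 2 arrays. The labels give day 4 colonies as MC1-ZE16 cells (129/Sv) grown in LIF+ ES medium with 50 nM RA, from which colonies of pluripotent cells were picked and pooled on day 4. Day 7 colonies were ES MC1 cells (129SvEv-Tac), also with LIF and 50 nM RA, picked on day 7. All other groups were MC1-ZE3 cells (129/Sv). Control day 3 cells grew for 3 days in LIF+ medium without RA, and RA 48 h cells received 50 nM all-trans RA for the last 48 h. LY294002 48 h cells received the PI3K inhibitor for 48 h, at 10 nM as the label gives it. Standard day 3 cells were collected on day 3 of standard culture, and passage 10 cells had spent 7 days in RA and then 10 passages without it before collection on day 3. Picked colonies are a selection from the dish, and each cell line name stands for 1 line. The protocol text for day 4 speaks of reagent added on day 4 in 1 place and of picked pooled colonies in another, and the same extraction text stands on cultures that were not picked.

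Day 4 colonies were the only MC1-ZE16 cells and had a slide of their own, so the day, the line and the slide cannot be told apart in any value that sets them against other groups. Their slide was read on the same scan day as the second replicates of standard day 3 and passage 10. Sample RNA was in Cy3 on every array. The Cy5 reference was RNA pooled from several mouse cell lines mixed with 129 ES cell RNA. A level here is log2 of sample over reference after background correction and loess, so 0 means as much as in the reference and a difference of 1 is 2-fold. Between 56.1% and 75.1% of the spots were well above background in Cy3, and no spot was saturated in that channel. With 2 arrays per group, and with no label stating separate cultures, a spread between replicates may be technical.

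The files give each probe an identifier and a 60-base sequence and no gene, and no transcript sequences of the mouse were used here. The ES cell, 2-cell-like, endoderm, trophoblast, neural, mesoderm and other marker lists could therefore not be read, and the labelled cell type was not checked against markers. The sequences below identify the members on which the account turns. The first set holds the 6 highest scores and, with them, the members ranked 8, 9 and 11, which were well above background on at least 11 of the 12 other arrays. Capitals mark AATAAA, a signal for polyadenylation near the 3′ end of transcripts.
Z00076469-1: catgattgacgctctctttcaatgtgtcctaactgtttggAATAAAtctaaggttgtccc
Z00065660-1: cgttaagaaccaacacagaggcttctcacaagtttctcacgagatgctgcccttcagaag
Z00070868-1: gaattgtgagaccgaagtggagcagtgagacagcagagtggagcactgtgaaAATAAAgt
Z00036563-1: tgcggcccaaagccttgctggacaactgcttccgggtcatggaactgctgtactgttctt
Z00028930-1: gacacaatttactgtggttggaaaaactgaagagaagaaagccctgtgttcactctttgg
Z00032997-1: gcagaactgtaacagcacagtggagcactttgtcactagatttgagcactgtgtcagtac
Z00031350-1: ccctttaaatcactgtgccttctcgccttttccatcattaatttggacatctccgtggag
Z00070594-1: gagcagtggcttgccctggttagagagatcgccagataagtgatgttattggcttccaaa
Z00067469-1: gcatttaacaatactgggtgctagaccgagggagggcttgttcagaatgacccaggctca

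The second set holds the 5 members with the largest fall and the 5 with the largest rise between the groups the choice did not use, LY294002 48 h and passage 10. Z00002490-1 and Z00074574-1 overlap, and capitals mark their 45 shared bases, so their values are readings of 1 sequence and not of separate ones.
Z00002490-1: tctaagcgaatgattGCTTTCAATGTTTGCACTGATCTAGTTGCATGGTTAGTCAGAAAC
Z00074574-1: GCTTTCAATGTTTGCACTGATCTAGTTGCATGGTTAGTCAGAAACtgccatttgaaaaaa
Among the others that fell, capitals again mark AATAAA.
Z00028478-1: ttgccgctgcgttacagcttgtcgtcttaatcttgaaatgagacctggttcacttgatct
Z00065724-1: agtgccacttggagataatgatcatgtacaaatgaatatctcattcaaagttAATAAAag
Z00037781-1: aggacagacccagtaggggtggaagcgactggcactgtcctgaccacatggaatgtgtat
Z00011394-1 and Z00055307-1, which rose, share 17 bases in capitals, the end of the first being the start of the second. A further 3 members rose, and among these capitals mark AATAAA in Z00034841-1.
Z00011394-1: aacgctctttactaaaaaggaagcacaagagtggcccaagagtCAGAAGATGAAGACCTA
Z00055307-1: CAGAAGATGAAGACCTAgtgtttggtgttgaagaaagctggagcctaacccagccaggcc
Z00067368-1: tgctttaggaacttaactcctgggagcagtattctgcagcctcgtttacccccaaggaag
Z00034841-1: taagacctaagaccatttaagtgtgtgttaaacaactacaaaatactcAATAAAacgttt
Z00006318-1: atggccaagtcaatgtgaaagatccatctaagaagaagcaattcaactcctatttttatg

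In day 4 colonies the members lay mostly above the reference, and in the other 6 groups they lay around it. The median level of the 150 members was 0.90 in day 4 colonies, with 142 members above the reference. In the other groups the median ran from -0.11 after LY294002 (59 members above the reference) to 0.07 in passage 10 (93 members). The medians of standard day 3 (0.07), day 7 colonies (0.01), control day 3 (-0.01) and RA 48 h (-0.03) lay between these. The replicate arrays of day 4 colonies were close, with a median SD of 0.05 over the members and a largest SD of 0.29.

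The values that chose the members are given as a description. The score ran from 1.32 to 3.47 with a median of 1.57. On the loess scale the same contrasts were smaller, with a median day 4 minus standard day 3 of 1.09 (range 0.07 to 2.33) and a median day 4 minus control day 3 of 1.19 (range 0.02 to 3.03). The median over all tested probes was 0.01 and 0.00 in those contrasts. On that scale 75 members were at least 2-fold above both baselines, where 1.58% of all tested probes were. At least 2-fold above standard day 3 were 83 members (3.41% of all tested probes), and 85 were so above control day 3 (3.73%). The last members inside the list were Z00054756-1 (score 1.327), Z00037355-1 (1.324) and Z00071976-1 (1.322). The first outside were Z00055409-1 (1.32), Z00056853-1 (1.313) and Z00034585-1 (1.309). The scores on the 2 sides of the edge differ in the third decimal.

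The highest score belonged to Z00076469-1, which read 1.74 and 1.62 on the day 4 arrays. It read 0.38 and 0.16 in standard day 3, 0.26 and 0.11 in control day 3, 0.25 and 0.23 after RA, 0.05 and -0.03 on day 7, -0.06 and 0.08 after LY294002, and 0.64 and 0.35 in passage 10. Both day 4 arrays lay above every other array, and passage 10 held the next highest. The probe was not well above background on either array of day 7 or LY294002, so the day 4 signal was at least 3.01-fold and at least 3.12-fold higher than in those groups. Such a bound is the smaller of 2 folds: the day 4 Cy3 mean over the lowest Cy3 signal still measured above background (or the probe's own, where higher), and the fold of the group means of the ratio.

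Z00065660-1, with rank 2 by score, read 1.18 and 1.24 on day 4 and between -0.14 and 0.11 on all 12 other arrays. It was not well above background in standard day 3, passage 10, LY294002 or day 7, and its day 4 signal was at least 2.35-fold, 2.22-fold, 2.52-fold and 2.47-fold higher than there. Z00036563-1, with rank 4, read 0.88 and 0.82 on day 4 and between -1.44 and -0.66 elsewhere. Against LY294002, where neither array was well above background, day 4 colonies were at least 4.29-fold higher. Outside day 4, Z00065660-1 was well above background on 4 of the 12 arrays and Z00036563-1 on 9.

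Other members were measured in nearly every group and still separated. Z00031350-1 read 0.87 and 0.94 on day 4 and between -1.46 and -1.07 on the other 12 arrays, among which the 6 groups lay close together. Its lower day 4 array stood 1.94 above the highest other array. Z00070594-1 read 2.26 and 2.01 on day 4, up to 0.67 elsewhere (control day 3), and lowest after LY294002 at 0.03 and -0.05. Z00067469-1 read 1.77 and 1.80 on day 4. Its other groups spread out, from 0.07 and -0.20 in standard day 3, 0.09 and -0.27 in passage 10 and -0.28 and -0.19 on day 7 to -0.90 and -0.68 in control day 3, -0.76 and -0.60 after RA and -1.21 and -0.87 after LY294002. Standard day 3 and control day 3, both untreated MC1-ZE3 cells, did not overlap for this probe.

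Several high scores rested on dim spots. Z00070868-1, with rank 3 by score, read 0.35 and 0.67 on day 4 and between -0.25 and 0.14 elsewhere. Z00032997-1 read 0.74 and 0.38 on day 4 and at most 0.22 elsewhere, and Z00054839-1 read 0.43 and 0.53 against at most 0.04. On day 4 no array overlapped the others. None of the 3 was well above background in standard day 3, and there the day 4 signal was at least 1.24-fold, 1.28-fold and 1.47-fold higher, while the scores placed them at ranks 3, 6 and 12. The background correction adds an offset to both channels, which shrinks the ratio of a dim spot by construction, and the scales rank the members differently.

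Of the 150 members, 7 were well above background on no array outside day 4. The first of these by score were Z00028930-1, Z00031570-1, Z00029248-1, Z00063782-1 and Z00064299-1. Z00028930-1 read 0.44 and 0.32 on day 4 and from -0.18 to 0.11 elsewhere. Z00031570-1 read 0.39 and 0.26 on day 4, but 0.30 on the second passage 10 array, so its groups overlapped. Z00029248-1 read 0.39 and 0.33 against at most 0.23, Z00063782-1 read 0.49 and 0.38 against at most 0.24, and Z00064299-1 read 0.33 and 0.65 against at most 0.17. As bounds, the day 4 signal was at least 1.05-fold to 1.38-fold higher than in the other groups for Z00028930-1, 1.01-fold to 1.25-fold for Z00031570-1, 1.06-fold to 1.26-fold for Z00029248-1, 1.25-fold to 1.32-fold for Z00063782-1 and 1.32-fold to 1.52-fold for Z00064299-1. The scores of the 7 ran from 1.43 to 3.04, so a high score here went with a small bound.

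At the other end, 94 members were well above background on all 14 arrays. Their median day 4 minus standard day 3 was 1.35, against 0.55 for the 56 members that dropped below that mark on at least 1 array. Their scores did not run higher, with a median of 1.52 against 1.74. In control day 3 both arrays measured 135 of the 150 members well above background. The number was 130 after RA, 122 on day 7, 119 after LY294002, 107 in standard day 3 and 105 in passage 10. All 150 were among the probes tested, because well above background on both day 4 arrays was also enough to enter the test.

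The members highest against the reference on day 4 were Z00037614-1 (3.73 on both arrays), Z00063661-1 (3.65 and 3.62) and Z00054244-1 (3.26 and 3.25). They were above the reference in every group as well, at 1.74 or more for Z00037614-1. Z00063661-1 read 2.39 and 2.37 in control day 3 but 1.34 and 1.34 in standard day 3, and 0.54 and 0.47 after LY294002. The lowest members on day 4 were Z00023263-1 (-1.68 and -1.63), Z00033336-1 (-1.05 and -0.85) and Z00034948-1 (-0.54 and -0.46). Z00023263-1 was scarce in all groups relative to the reference, with -4.20 and -3.98 in control day 3 and -2.52 and -2.41 in passage 10, and its signal was well above background on all 14 arrays. A place in the list thus says that day 4 was higher than the baselines and not that the level itself was high.

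Day 4 colonies had the highest group mean for 148 of 150 members, and RA 48 h was higher in the other two, Z00022529-1 and Z00054756-1, by 0.03 at most. Both day 4 arrays lay above all 12 other arrays for 142 members, where 11.4% of all tested probes did so. The contrasts with the baselines were built into the choice, so a high count was given in advance for most of the other arrays. The choice did not use LY294002 and passage 10. Passage 10 lay near standard day 3, however, a baseline of the choice, so the count is a description and not a check. The gap between the lower day 4 array and the highest other array was at least 1 for 50 members, and was largest for Z00074574-1 (2.01), Z00002490-1 (2.00) and Z00031350-1 (1.94). The highest other array was a RA 48 h array for 33 members, standard day 3 for 31, passage 10 for 30, day 7 for 26, LY294002 for 17 and control day 3 for 13. No single group came second throughout.

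In 8 members an array of another group reached the lower day 4 array. The smallest gaps were those of Z00022529-1 (-0.18), Z00071378-1 and Z00027410-1 (-0.06 each). Z00022529-1 read 0.45 and 0.60 on day 4 against 0.48 and 0.64 after RA, 0.53 and 0.45 in control day 3 and -0.01 and 0.15 in standard day 3. On the loess scale it stood above standard day 3 and passage 10 and not above control day 3, where the difference was 0.04. Z00054756-1, 1 of the last 3 inside the list, read 1.23 and 1.25 on day 4 and 1.22 and 1.26 after RA. For that probe the day 4 and RA 48 h levels overlapped, with control day 3 at 0.91 and 0.79.

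The channels were also read apart, as a description of values the choice rests on. In Cy3, which held the sample RNA, both day 4 arrays were above all 12 others for 146 members and for 12.1% of all tested probes. The median difference between day 4 and the other arrays over the members was 1.31 (range -0.03 to 3.53). In Cy5, which held the reference, the median difference was 0.10 (range -0.62 to 1.01). Both day 4 Cy5 values lay below all others in 1 member, and in 1.97% of all tested probes. In 3 members the Cy5 value was lower on day 4 by more than 0.5.

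After 48 h of RA and in day 7 colonies the members were close to their own baselines on balance. The median RA 48 h minus control day 3 was 0.05 (range -1.12 to 0.56), and the median day 7 minus standard day 3 was -0.05 (range -1.46 to 0.52). The upper ends follow from the choice. Downwards, 2 members were at least 2-fold below control day 3 after RA (0.898% of all tested probes did) and 4 were that far below standard day 3 on day 7 (3.05% of all tested probes). Day 4 minus RA 48 h had a median of 1.02 and day 4 minus day 7 a median of 1.06. Day 7 colonies set against control day 3, a pairing the limits did not use, had a median of 0.03, with 3 members at least 2-fold higher (3.66% of all tested probes) and 4 at least 2-fold lower (3.65%).

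Passage 10 cells had been through 7 days of RA, and the members there were at the level of standard day 3. The median difference was -0.02 (range -0.50 to 0.39), and all 150 members stayed within 2-fold. Across all tested probes 0.0515% were at least 2-fold higher and as many lower, so nearly all probes lay within 2-fold in this pair. Standard day 3 was a baseline of the choice and no test was made. Passage 10 and standard day 3 arrays shared their slides, 1 array of each per slide.

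LY294002 48 h and passage 10 were the groups the choice had left aside, and they allow the 1 test on the members. In limma's moderated test over all 31053 tested probes, at a Benjamini-Hochberg adjusted p under 0.05, 71 members were lower (47.3%), beside 24.6% of all tested probes. Higher calls were made for 14 members (9.33%), beside 23.3% of all tested probes, and 65 members passed in neither direction. With log ratios centred on the array median and no loess, 35 members were lower (6.78% of all tested probes) and 19 higher (33.2%), so both the counts and the background depend on that step. The median LY294002 minus passage 10 was -0.21 over the members and 0.01 over all tested probes. With a 2-fold change asked for as well, 21 members were lower (3.25% of all tested probes) and 0 were higher (1.7%). The 71 and 21 probes stand for 69 and 19 sequences once overlapping probes are counted once.

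The 2 groups lay on different slides and scan days, so these calls compare LY294002 on 1 slide with passage 10 on 2 others. Their histories also differ in more than the inhibitor, since passage 10 cells had earlier RA. In at least 1 of these groups 126 of the 150 members passed the background mark on both arrays, and 65 of them (51.6%) were lower and 14 (11.1%) higher. Among all probes that met the same condition, 26.0% were lower and 25.8% higher. The arrays did not overlap and LY294002 was lower for 91 members, where 36.4% of all tested probes showed this, and LY294002 was higher without overlap for 28, where 36.8% did. The choice did not use these arrays, but it used their scan days. It asked for day 4, scanned with passage 10 replicate 2, to lie above control day 3, scanned with LY294002. It equally asked for day 4 to lie above standard day 3, whose arrays shared slides and scan days with passage 10. Standard day 3 minus control day 3 had a median of 0.07 over the members and -0.02 over all tested probes. What the shared scan days add was not tested.

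The largest fall was that of the overlapping pair. Z00002490-1 read 3.06 and 3.13 on day 4, 0.63 and 0.73 in passage 10 and -2.68 and -2.43 after LY294002. The other groups lay in between, at 0.92 and 1.06 in standard day 3, 0.07 and 0.10 in control day 3, 0.09 and 0.00 on day 7 and -0.85 and -0.93 after RA. Its LY294002 minus passage 10 was -3.23 (SE 0.09, limma adjusted p 6.011e-11), and Z00074574-1 gave -3.37 (SE 0.10, limma adjusted p 7.585e-11). From day 4 colonies to LY294002, the level of Z00074574-1 differed by 5.82, the widest such difference among the members.

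Z00028478-1 read 3.01 and 3.04 on day 4, 1.85 and 1.65 in passage 10 and -0.97 and -0.89 after LY294002, a difference of -2.68 (SE 0.11, limma adjusted p 1.156e-09). Control day 3 read 1.69 and 1.68, and the RA 48 h arrays were lower at 0.54 and 0.58. Z00065724-1 read 2.75 and 2.58 on day 4, 1.67 and 1.76 in passage 10, and -0.98 and -0.69 after LY294002 (difference -2.55, SE 0.10, limma adjusted p 1.26e-09). Here control day 3 (0.34 and 0.54) and RA 48 h (0.50 and 0.51) overlapped. Z00037781-1 read 1.57 and 1.58 on day 4, -0.17 and -0.15 in passage 10 and -2.71 and -2.54 after LY294002 (difference -2.46, SE 0.09, limma adjusted p 7.933e-10). Day 7 colonies held its next lowest arrays, -1.52 and -1.24, and control and standard day 3 were near 0.

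All 21 members that were at least 2-fold lower were well above background on all 14 arrays. Their other contrasts are set beside this one, with no test, since they share the LY294002 arrays or were used by the choice. LY294002 minus control day 3, which lay on another slide of the same scan day, had a median of -1.25 (range -2.79 to 0.20). Day 7 minus standard day 3 had a median of -0.42 (range -1.46 to 0.14), and RA 48 h minus control day 3 a median of -0.17 (range -1.12 to 0.27).

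Over the whole list LY294002 minus control day 3 had a median of -0.12 (range -2.79 to 0.91). At least 2-fold lower were 17 members, beside 5.74% of all tested probes, and 0 members were at least 2-fold higher, beside 1.43%. LY294002 held the lowest group mean for 68 of the 150 members, control day 3 for 30, passage 10 for 18, RA 48 h for 16, day 7 for 14 and standard day 3 for 4. This order was not counted over all tested probes. The choice used these groups except LY294002 and passage 10, so the counts are a description only.

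The 14 members that were higher with LY294002 than in passage 10 differed by less than 2-fold. Z00055307-1 read 0.82 and 0.86 after LY294002 and 0.12 and 0.15 in passage 10 (difference 0.70, SE 0.07, limma adjusted p 4.012e-06), with 1.96 and 1.78 on day 4. Its neighbour in sequence, Z00011394-1, read 0.80 and 0.78 against 0.13 and 0.13 (difference 0.66, SE 0.07, limma adjusted p 3.592e-06). For both, the RA 48 h arrays were above control day 3, and standard day 3 was above passage 10.

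Z00006318-1 read 0.46 and 0.50 on day 4, -0.68 and -0.73 after LY294002 and -1.23 and -1.24 in passage 10 (difference 0.52, SE 0.06, limma adjusted p 1.3e-05). Its RA 48 h arrays, -0.63 and -0.60, were also above control day 3 at -1.16 and -1.18. Z00034841-1 was likewise higher after LY294002 (-0.54 and -0.46) and after RA (-0.63 and -0.65) than in control day 3 (-1.11 and -1.10) and passage 10 (-1.02 and -1.07). Z00067368-1 read 1.09 and 1.38 after LY294002 against 0.57 and 0.70 in passage 10 and was lowest on day 7, at 0.41 and 0.43. Over the 14, RA 48 h minus control day 3 had a median of 0.26 and LY294002 minus control day 3 a median of 0.25. These contrasts share the control arrays, and LY294002 was high in the 14 by selection.

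Z00031350-1, with 1 of the widest day 4 gaps, passed in neither direction. It read -1.41 and -1.18 after LY294002 and -1.14 and -1.31 in passage 10, and the 95% interval of the difference ran from -0.27 to 0.14. The 65 members without a call had a median day 4 minus standard day 3 of 0.75, against 1.34 for the 71 that were lower and 1.34 for the 14 that were higher. Of the 65, 29 were well above background on all 14 arrays, against 54 of the 71 and 11 of the 14.

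Overlapping probes gave repeated readings within the arrays. Among the members 4 pairs shared 45 to 59 bases in the same orientation, so the 150 probes stand for 146 sequences. Z00075413-1 and Z00031132-1 shared 59 bases, shown in capitals.
Z00075413-1: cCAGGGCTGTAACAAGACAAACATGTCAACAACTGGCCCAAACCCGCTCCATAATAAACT
Z00031132-1: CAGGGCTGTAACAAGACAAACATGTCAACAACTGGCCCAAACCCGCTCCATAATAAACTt
Their mean levels were 2.45 and 2.49 on day 4, 0.60 and 0.60 after LY294002, and 0.58 and 0.58 in passage 10. The pair Z00078143-1 and Z00053931-1 shared 46 bases, in capitals.
Z00078143-1: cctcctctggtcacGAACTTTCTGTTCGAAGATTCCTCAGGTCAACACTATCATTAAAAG
Z00053931-1: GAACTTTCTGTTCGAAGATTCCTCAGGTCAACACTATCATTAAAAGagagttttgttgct
They read 3.16 and 2.99 on day 4 and -0.29 and -0.26 after LY294002, and both were called lower than in passage 10 (-1.38 and -1.29, limma adjusted p 1.111e-07 and 1.043e-07). All 4 probes are members, so a high day 4 level was given by the choice, and what the pairs add is the closeness of their levels.

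The remaining pair was dim and its probes differed. Z00063036-1 and Z00053009-1 shared 52 bases and read 0.54 and 0.40 on day 4. Z00063036-1 was called lower after LY294002 (-0.28, limma adjusted p 0.005241). Neither LY294002 array and only 1 passage 10 array had it well above background, and passage 10 was 1.22-fold higher by the ratio. Z00053009-1 was not called (-0.04, limma adjusted p 0.7229). The 2 probes were well above background on 10 and 9 of the 14 arrays.

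Another 4 members overlapped a probe outside the list. Z00075113-1 shared 56 bases with Z00039649-1, and their day 4 levels were 0.63 and 0.61, with day 4 minus standard day 3 at 1.30 in both. Z00042679-1 shared 43 bases with Z00061036-1, which was lower on day 4 (-0.08 against 0.25) and higher than its own standard day 3 level by 0.72 against 1.09. Z00025220-1 and Z00070021-1 shared 42 bases and differed from standard day 3 by 0.26 and 0.36. Z00076667-1 shared 46 bases with Z00036404-1, which was well above background on 1 of the day 4 arrays and so could not enter the list. The outside probe of each pair was higher on day 4 than in standard day 3. It shared bases with a member chosen for that difference and was read on the same arrays, so this direction was largely given by the choice.

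In base composition the members were like other detected probes. Their median GC content was 45%, as it was for probes well above background on both day 4 arrays, with 43.3% for all probes. AATAAA or ATTAAA, counted once per probe where they occur together, stood in 22 members (14.7%), in 11.2% of the probes well above background on both day 4 arrays and in 9.90% of all probes. The reverse complements TTTATT or TTTAAT stood in 5.33%, 5.33% and 5.53%. Such a match describes the letters of the probe and does not show a used signal.

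Whole-probe matches to the RefSeq promoter windows (GRCm38.p6, 250 bases before to 50 after each gene's start) were found for 2 members and 267 of all 42006 probes (0.636%). The 2 were picked out after their values were seen, and both lay on the strand opposite to the gene, as did 149 of the 267. Capitals mark AATAAA.
Z00029022-1: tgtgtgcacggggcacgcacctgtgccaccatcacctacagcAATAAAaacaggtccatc
Z00065962-1: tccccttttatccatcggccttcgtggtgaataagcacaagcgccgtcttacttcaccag
Z00029022-1 lies at chr9:114782177-114782236 on the plus strand, 184 to 243 bases upstream of the start of Cmtm7, a gene of the CKLF-like MARVEL transmembrane family on the minus strand. Z00065962-1 lies at chr14:105177447-105177506 on the plus strand, 133 to 192 bases upstream of the start of Rbm26, which encodes an RNA-binding protein and is on the minus strand. The position does not show which transcript a probe reads, and neither probe is a reading of the named gene. Z00029022-1 read 1.21 and 1.31 on day 4, 0.50 and 0.49 on day 7 and -0.23 and -0.28 after LY294002, which was lower than passage 10 by 0.60 (difference -0.60, SE 0.06, limma adjusted p 8.064e-06). Z00065962-1 read 1.02 and 0.90 on day 4 and from -0.16 to 0.25 elsewhere, and it was not called between LY294002 and passage 10 (-0.05, limma adjusted p 0.6956).

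How far the list holds from 1 array to its replicate was read by choosing 150 probes on the first replicates alone and looking at the second, and the reverse. Probes chosen on the first replicates had a median score of 1.78 there and 1.54 on the second, where 111 of 150 still scored at least 1 and 98 stayed within both limits. Probes chosen on the second replicates had a median of 1.65 there and 1.41 on the first, with 112 at a score of at least 1 and 113 within both limits. The 2 lists shared 59 probes, and 93 and 94 of the 150 members were in them. The members were chosen on the mean of these same arrays, so their presence in either list was partly built in. Both day 4 arrays lay on 1 slide and held 1 line, so whatever the slide or the line adds is in both replicates. The split thus describes repeat readings and not separate cultures.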

How the data were processed

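Sample RNA (Cy3) and a common reference (Cy5) were hybridised together on 14 Agilent arrays. Per the file headers, spots were read by version 9.5.1.1 of Agilent Feature Extraction. The deposited intensity values (mean signal and median background) carry no normalization. The deposited log10 ratios are Cy5 over Cy3, after the software's background subtraction and dye normalization, per the file headers, and the members were chosen on minus that ratio as log2. The authors' value table, deposited as log10 values, holds 25030 probes and 94 members. It tracked minus the log10 ratio (r 0.99927 to 0.99997 over 14633 probes, after centring each probe). Its column medians were 2.24 to 2.32 and the origin of its centring is not given in the sources used here.

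Levels come from normexp (offset 50) and loess in limma 3.58.1 (R 4.3.3, statmod 1.5.0), with control and outlier spots left out and spots of a probe averaged. A probe entered the fit when both arrays of 1 or more groups had it well above background in Cy3. These 31053 probes (73.9%) were fitted over all 14 arrays (group means, 7 residual degrees of freedom). The 1 test was eBayes, two-sided, with Benjamini-Hochberg adjustment, and the fit was tested on simulated data. Contrasts on arrays that the choice used were not tested.

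The members, lists and tests were chosen with earlier results of these data known. Probes were named by rule: the 12 highest scores, the 3 on each side of the list's edge, the 5 largest rises and falls of the test, members sharing 20 or more bases, the 3 highest and lowest on day 4, the first 5 measured only on day 4, and the 3 smallest and largest gaps. Gene lists could not be applied, since probes carry no gene names. Alternatives changed the normalization, background, channel, filter, blocks, replicates and limits.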

Additional observations from a re-analysis of the deposited data

How the results depend on the processing

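Between LY294002 and passage 10, 85 members were called with loess, beside 47.8% of all tested probes. When log ratios were centred on the array median without loess, 54 were called, 35 of them lower and 19 higher. Of all tested probes 6.78% were then lower and 33.2% higher. The 35 were all among the 71 lower calls, and 12 of the 19 among the 14 higher ones. That scaling moved the median of all probes to 0.19. Lower calls were then 64.8% of the members' calls, against 83.5% with loess, and members were lower in 23.3% beside 6.78% of all tested probes. Asking for a 2-fold change left 21 calls, 21 lower and 0 higher. Leaving out 1 array of either group gave 67 to 74 calls in all, 56 to 63 lower and 9 to 12 higher. The 9 came from leaving out passage 10 replicate 1. The cause of these moves was not tested, beyond the fewer arrays. In the same refits the shares of all tested probes called lower and called higher were also below those of the main fit. The smaller counts are thus not particular to the members. The median LY294002 minus passage 10 over the members ran from -0.221 to -0.171 in these refits, against -0.209 with all arrays. The 10 probes named for their rise or fall kept direction and adjusted p under 0.05 in every refit in which they had a value, and the 5 rises were all under 2-fold. With slide and with scan day as a random block, 73 and 70 members were lower, beside 24.9% and 24.2% of all tested probes. In each 14 members were higher, beside 23.7% and 22.9%. The fitted block correlations were -0.0338 and 0.0303. The 2 groups shared no slide and no scan day, so such a block cannot remove an offset of either from this contrast. With the replicate number as a block, 72 members were lower (24.9% of all tested probes) and 15 higher (23.5%). Deviations of same-numbered arrays correlated at 0.287, and the labels give no shared material, so the numbers were not taken as pairs.

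Choosing the members on loess values kept 69 of 150, on Cy3 alone 69, and on the authors' deposited value table, where 94 members have values, 90. Limits of 0.25 and 1 in place of 0.5 kept 96 and 80, and 1 replicate alone kept 93 and 94. Both day 4 arrays were highest for 92 of the 94 in the value table, where 13.1% of all tested probes showed this. That table tracked the ratios the choice used, so a high count was largely built in. Why members left the list under other values was not tested. Members below the background mark on at least 1 array had a median score of 1.74, against 1.52 for the rest. On the loess scale their median day 4 minus standard day 3 was 0.55, against 1.35.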
